A study of Bos grunniens and Bos grunniens x Bos taurus with 6 samples.

Results

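Expression of 10 selenoprotein genes was followed in a back muscle, the longissimus dorsi, in yak and in cattle-yak: SELENOW, MSRB1, GPX1, GPX3, GPX4, SELENOP, SELENOK, SELENOS, SELENOT and TXNRD1. They are 10 of the 31044 gene identifiers in the deposited table. Identifiers were chosen by their read counts: for each symbol the one with the most reads pooled over all 6 libraries was taken, and all transcripts of that identifier were summed in each library. The set was put together with the differences of SELENOW, GPX3 and MSRB1 between the groups already known, so the gene levels below are a description, and no statement about the set as a whole rests on them.

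The study sequenced total RNA of this muscle as full-length cDNA, amplified by PCR, on nanopores, in 3 libraries labelled yak and 3 labelled cattle-yak. Cattle-yak are hybrids of domestic cattle and yak. The sources used here do not give the cattle parent's breed, age, sex, feed or selenium status, nor say that libraries of one group stem from separate animals. The p-values therefore measure the spread between these libraries, which may be technical. The libraries held between 2350851 and 2769106 counted reads. Of 12 muscle fibre markers, 10 were matched to an identifier where their name stood on at least 50% of the reads with a symbol. The identifier of MYH2 also held MYH1-named reads. Together the 10 markers had 208400 to 297400 CPM, the reads of a gene scaled to a common library total.

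Selenoproteins carry selenocysteine, an amino acid inserted at a UGA codon that would otherwise end translation, with the help of a hairpin in the 3′ untranslated region of the mRNA. Most are oxidoreductases: the glutathione peroxidases reduce peroxides, thioredoxin reductase keeps thioredoxin reduced, MSRB1 repairs oxidised methionine, and SELENOP carries selenium in plasma. Skeletal muscle is a main site of SELENOW expression, and selenium deficiency in livestock causes white muscle disease, a degeneration of skeletal and heart muscle.

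All 10 genes had enough reads to be tested, with 97 to 11184 pooled reads each. The filter on low counts asked for at least 4.17 CPM in 3 libraries. GPX3 met it only through the cattle-yak libraries, so it had to be higher there to be tested at all. Levels are CPM scaled by TMM (trimmed mean of M values), and changes are log2 fold changes of cattle-yak minus yak with their standard error (SE), from edgeR's quasi-likelihood test over all 7504 genes tested, with Benjamini-Hochberg adjustment and a threshold of 0.05. SELENOW fell, GPX3 and the identifier taken for MSRB1 rose, and 7 of the 10 did not pass. Of all genes tested 12.6% passed, 6.45% upward and 6.18% downward. The 10 log2 fold changes had a median of 0.08, against 0.02 for all genes tested. In 5 of the 10 genes the CPM ranges of the groups did not overlap, as in 33.0% of all genes tested. MSRB1, GPX3 and SELENOT were higher in every cattle-yak library than in any yak library, and SELENOW and GPX1 were lower. Gene lengths were not used, so levels are compared within a gene and not between genes.

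**Figure D1:**
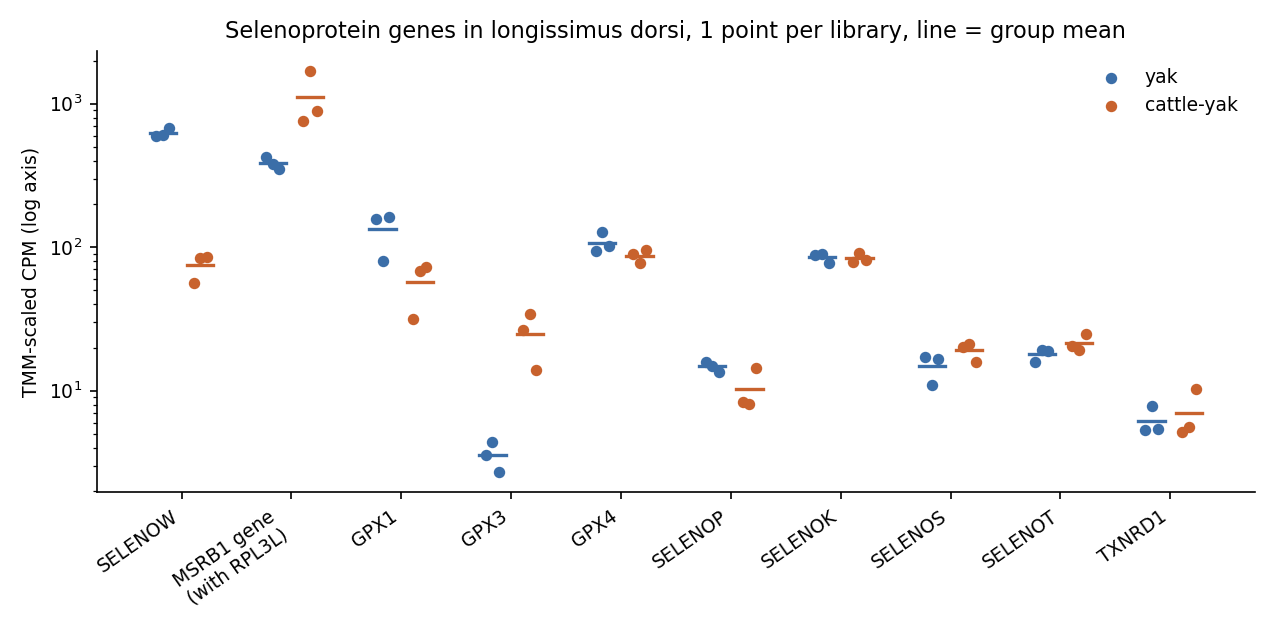
TMM-scaled CPM (log axis) of the 10 selenoprotein genes, with 1 point per library, yak in blue, cattle-yak in orange, and a line at each group's mean. SELENOW lies near 600 CPM in yak and below 86 CPM in cattle-yak, GPX3 lies between 2.70 and 4.37 CPM in yak and between 13.95 and 34.1 CPM in cattle-yak, and the ranges of GPX4, SELENOP, SELENOK, SELENOS and TXNRD1 overlap between the groups.

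SELENOW encodes a small cytosolic selenoprotein with a thioredoxin-like fold. Its identifier, ENSBGRG00000025192, had 1352, 1385 and 1492 reads in the yak libraries and 142, 208 and 233 in the cattle-yak libraries. The lowest yak library had several times the reads of the highest cattle-yak library. At the level of CPM this was 599.7, 604.9 and 672.1 against 56.2, 83.55 and 85.55, an 8.33-fold lower mean in cattle-yak (log2 fold change -3.06, 95% interval -3.47 to -2.64). The summed CPM of the muscle fibre markers was 262900 to 297400 in yak and 208400 to 231200 in cattle-yak, which also did not overlap. The identifier of ACTA1 made up much of that sum, with the name on only 1.57% of its reads. Without ACTA1, a choice made after seeing the data, the sums were 158500 to 168800 in yak and 141200 to 148400 in cattle-yak. Of the 10 markers 3 fell, namely ACTA1 (log2 fold change -0.65), MYH2 (-0.66) and MB (-0.92), TTN rose (0.64) and 6 did not pass. Their median was -0.15, against 0.02 for all genes tested, of which 6.18% fell and 6.45% rose. The part of these markers in the SELENOW result was not tested. In bulk tissue, fewer cells of a type and less RNA per cell cannot be told apart.

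The SELENOW transcripts are described here without a test, since they make up the gene total that was known when the set was chosen. All 27 SELENOW transcripts in the table were assembled by the authors' pipeline, with none from the reference annotation. The leading one, TALONT000936983, had 1033, 1088 and 1174 reads in yak against 104, 147 and 165 in cattle-yak (log2 fold change -3.16, SE 0.20). The next, TALONT000936994, had 241, 221 and 236 reads against 29, 43 and 34 (log2 fold change -2.88, SE 0.23). TALONT000937095, a rare form, had 11, 17 and 13 reads against 0, 2 and 3, and met the filter only through yak. The leading transcript held 77.9% ± 1.28 (SD, n = 3) of the gene's reads in yak and 71.6% ± 1.44 in cattle-yak, ranges that did not overlap. The test of transcript usage asks whether the transcripts of a gene keep their proportions. It covered only 2 of the 27 SELENOW transcripts and did not pass for them (adjusted p = 0.619). Between 19 and 23 SELENOW transcripts were seen in a yak library and between 8 and 10 in a cattle-yak library, at read totals that differ as given above.

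MSRB1 encodes methionine-R-sulfoxide reductase B1, which reduces the R form of oxidised methionine in proteins, including actin. The identifier with most MSRB1 reads, ENSBGRG00000026001, had 962, 865 and 785 reads in yak against 1921, 4219 and 2432 in cattle-yak. Every cattle-yak library was above every yak library, and cattle-yak 2 was far above the other cattle-yak libraries. The log2 fold change was 1.53 with an SE of 0.28, and 1.11 without cattle-yak 2. Reference transcripts alone gave a log2 fold change of -0.57.

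This identifier holds the reads of a second gene. Of its 11184 pooled reads, 65.6% lay in 8 assembled transcripts named MSRB1, and the remaining 3851 reads lay in 80 transcripts named RPL3L, which encodes a ribosomal protein L3 paralog of striated muscle. In the RefSeq annotation of the yak assembly Bosgru_T2T1.0, RPL3L is 2 genes away from MSRB1 with a long non-coding RNA gene between them. That assembly was used only for gene order, since no source used here names the build behind the table.

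Split by transcript name, the reads of the identifier moved in opposite directions. The MSRB1-named transcripts had 154, 131 and 75 reads in yak against 1412, 3797 and 1764 in cattle-yak. Their lowest cattle-yak library was above their highest yak library by a wide margin. Their mean level was 53.1 ± 17.6 CPM (SD, n = 3) in yak against 911 ± 534 CPM in cattle-yak, 17.2-fold higher (log2 fold change 4.10, SE 0.52, 95% interval 2.84 to 5.36). Leaving out each library in turn gave log2 fold changes from 3.51, without cattle-yak 2, to 4.35. MSRB1 was chosen for its difference, so this range is a description and no support. The RPL3L-named transcripts had 808, 734 and 710 reads in yak against 509, 422 and 668 in cattle-yak. All cattle-yak libraries were below all yak libraries there (log2 fold change -0.69, SE 0.17, adjusted p = 0.0178). That RPL3L call was lost without cattle-yak 2 (adjusted p = 0.0606), yak 1 (0.0604) or yak 3 (0.0506), within a range of 0.0115 to 0.0606 over the libraries left out. The MSRB1-named share of the identifier's reads went from 13.6% ± 3.50 to 78.7% ± 9.82 (SD, n = 3). The value of 1.53 for the whole identifier is thus a sum over transcripts of both names, and the split was chosen after seeing the data.

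**Figure D2:**
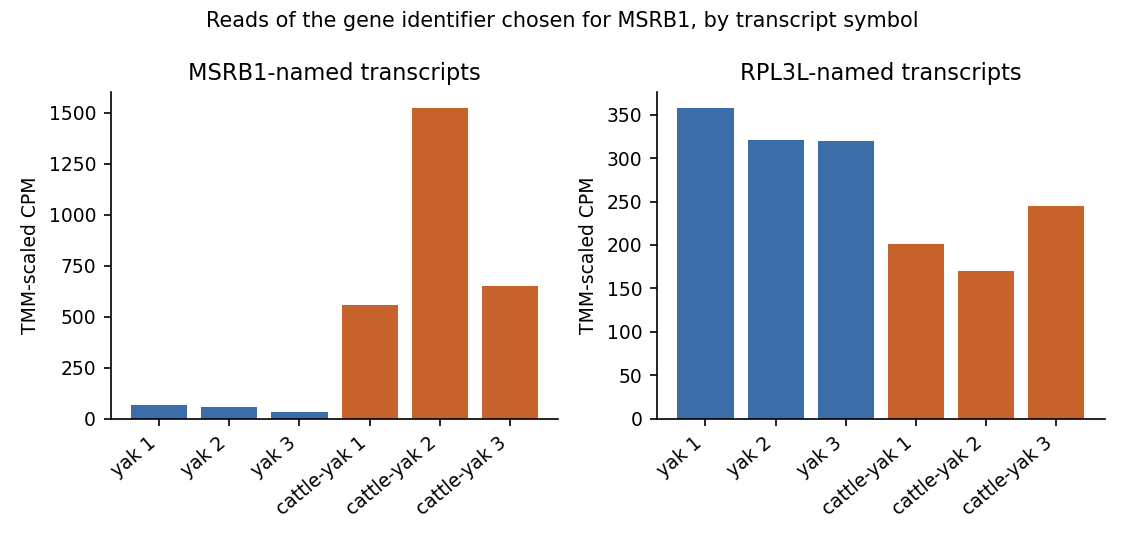
TMM-scaled CPM of the transcripts of one gene identifier, named MSRB1 (left) and RPL3L (right), with 1 bar per library, on separate axes that start at 0. The MSRB1-named level lies between 33.8 and 68.3 CPM in yak and between 558.9 and 1525 CPM in cattle-yak, while the RPL3L-named level lies between 319.8 and 358.4 CPM in yak and between 169.5 and 245.3 CPM in cattle-yak.

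One transcript carried most of the MSRB1 difference. TALONT001486207 had 147, 120 and 72 reads in yak against 1346, 3654 and 1688 in cattle-yak (log2 fold change 4.15, SE 0.55). It made up 12.8% ± 3.20 (SD, n = 3) of the identifier's reads in yak against 75.4% ± 9.75 in cattle-yak. A further 155 MSRB1-named reads stood under another identifier, ENSBGRG00000026025, as 4, 1 and 7 reads in yak against 29, 74 and 40 in cattle-yak (log2 fold change 3.35, SE 0.55). These reads met the filter on low counts only through cattle-yak, so they had to be higher there to be tested. Their difference is a description and adds no support to that of the MSRB1 identifier. Cattle-yak 2 was the highest library for these reads as well. Among the RPL3L-named transcripts, the reference transcript ENSBGRT00000048123 had 315, 284 and 286 reads in yak against 195, 147 and 245 in cattle-yak (log2 fold change -0.78, SE 0.20). The assembled TALONT001484024 (log2 fold change -1.03) and TALONT001484984 (-0.85) fell with it. The other tested RPL3L-named transcripts did not pass, with log2 fold changes of either sign, from -0.64 to 0.31.

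The glutathione peroxidases differed among themselves. GPX3, the form secreted into plasma, is made mainly by kidney and is also expressed in muscle and fat. Its identifier, ENSBGRG00000006702, had 8, 10 and 6 reads in yak against 67, 85 and 38 in cattle-yak. All cattle-yak libraries were higher, with cattle-yak 3 the lowest of them. The mean rose from 3.54 ± 0.83 to 24.9 ± 10.2 CPM (SD, n = 3), a 7.03-fold difference (log2 fold change 2.79, 95% interval 1.94 to 3.63). Leaving out each library in turn gave log2 fold changes from 2.50 to 3.07. GPX3 was chosen for its difference and was testable only through cattle-yak, so this range is a description and no support.

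GPX3 was present as 9 assembled transcripts. TALONT001384686 had 8, 7 and 3 reads in yak against 49, 58 and 29 in cattle-yak (log2 fold change 2.74, SE 0.44). It held 72% of GPX3 reads and, like the gene, met the filter only through cattle-yak, so the difference is a description. TALONT001384826 had no read in yak and 8, 16 and 7 reads in cattle-yak, at least 9.15-fold higher when the yak group is set at 3 reads over its 3 libraries, the limit that a count of 0 allows. This limit covers counting error only, since PCR copies were counted without molecular identifiers. Of 8 liver and kidney markers 7 had no read under their names, and the remaining one, APOA1, was at 0.45 CPM in one yak library. Macrophage markers, with 10 of 12 detected, summed to 22.3 to 52.3 CPM in yak and 49.5 to 117 CPM in cattle-yak, where cattle-yak 3, lowest in GPX3, stood at 112. Of the 4 macrophage markers tested, CTSS rose, with its name on 53.4% of its identifier's reads, and 3 did not pass. The median log2 fold change of these markers was 1.41, against 0.02 for all genes tested. Adipocyte markers, with 5 of 8 detected, summed to 154.8 to 204.4 CPM in yak and 110.9 to 164.1 CPM in cattle-yak. Of the 4 adipocyte markers tested, PLIN4 rose, with its name on 24.1% of its identifier's reads, and 3 did not pass. The part of macrophages or adipocytes in the GPX3 result was not tested.

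GPX1 encodes the cytosolic peroxidase that reduces hydrogen peroxide. It had 354, 185 and 361 reads in yak against 80, 169 and 197 in cattle-yak, and its levels were 157, 80.8 and 162.6 CPM against 31.7, 67.9 and 72.3 CPM. The groups did not overlap, though yak 2 stood close to the upper cattle-yak libraries. The difference did not pass the edgeR test (log2 fold change -1.22, SE 0.36, 95% interval -2.03 to -0.40, adjusted p = 0.0607). It passed with DESeq2 (adjusted p = 0.00287), limma-voom (0.0364), without robust dispersion (0.0282), without the low count filter (4.46e-08) and without yak 2 (0.0143), in a range of 4.46e-08 to 0.166 over 17 alternatives. A single assembled transcript, TALONT000510420, held 99.9% of GPX1 reads. Red blood cells are rich in GPX1 protein, and 3 of 7 erythroid markers had reads under their names, HBB and HBA on 17.4% and 37.3% of their identifiers' reads, summing to 19.5, 26.6 and 4.05 CPM in yak against 2.38, 0.80 and 2.20 CPM in cattle-yak. The erythroid sum was thus lower in all cattle-yak libraries. AHSP, the marker named on all of its identifier's reads, overlapped between the groups. It had 1.77, 1.31 and 1.35 CPM in yak against 0, 0 and 1.84 CPM in cattle-yak. Among yak libraries the sum was highest in yak 2, where GPX1 was lowest. The part of red blood cells in the GPX1 result was not tested.

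GPX4, which reduces lipid hydroperoxides in membranes, had 211, 291 and 227 reads in yak against 225, 192 and 261 in cattle-yak. The groups overlapped, and the log2 fold change of -0.30 did not pass (95% interval -0.68 to 0.08, adjusted p = 0.298). The usage test over 2 of its 25 assembled transcripts did not pass (adjusted p = 0.61). The leading transcript, TALONT001203776, held 69.9% ± 4.56 (SD, n = 3) of the reads in yak against 67.0% ± 3.04 in cattle-yak.

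**Figure D3:**
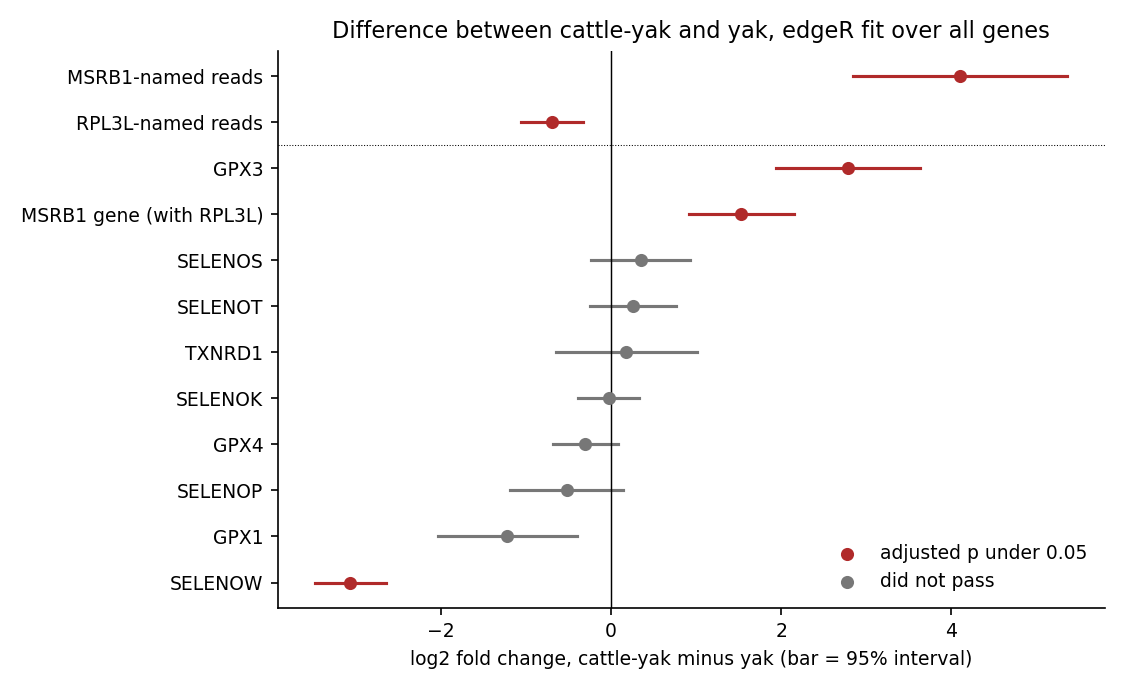
Log2 fold change of cattle-yak minus yak for the 10 selenoprotein genes (below the dotted line) and for the MSRB1-named and RPL3L-named reads of one identifier (above it), as points with 95% intervals, in red where the adjusted p was under 0.05. SELENOW lies at -3.06 and GPX3 at 2.79, and the intervals of SELENOS, SELENOT, TXNRD1, SELENOK, GPX4 and SELENOP span 0.

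SELENOP encodes the plasma carrier of selenium, made mainly by the liver. It had 36, 34 and 30 reads in yak against 21, 20 and 39 in cattle-yak. Only cattle-yak 3 reached the yak range, and the gene did not pass (log2 fold change -0.52, 95% interval -1.18 to 0.14, adjusted p = 0.296). Its most abundant transcripts stood in a different order in the groups. TALONT000509393 had 23, 18 and 20 reads in yak against 3, 7 and 13 in cattle-yak (log2 fold change -1.58, SE 0.44). TALONT000509564 had 8, 10 and 6 reads in yak against 15, 11 and 24 in cattle-yak (log2 fold change 0.86, SE 0.41). The ranges of neither transcript overlapped between the groups. TALONT000509393 met the filter on low counts only through yak and TALONT000509564 only through cattle-yak, so each had to be higher in that group to be tested, and their differences are given as a description.

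As shares of the gene, TALONT000509393 held 61.2% ± 7.26 in yak and 27.5% ± 11.5 in cattle-yak, and TALONT000509564 held 23.9% ± 4.92 and 62.7% ± 8.27 (SD, n = 3). The leading transcript of SELENOP was therefore a different one in each group. The usage test gave SELENOP an adjusted p of 0.0122 (edgeR), but the filter let in transcripts with opposite differences, so it adds no support to the shares. It was also above 0.05 with the Simes method (0.151), without yak 1 (0.0797) and without yak 3 (0.0955), in a range of 0.00622 to 0.151 over 10 alternatives, and SELENOP had 180 reads in all. Of the 1821 genes in that test, 8.62% passed. Of the set, 4 genes could enter it, and the mixed MSRB1 identifier passed as well.

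**Figure D4:**
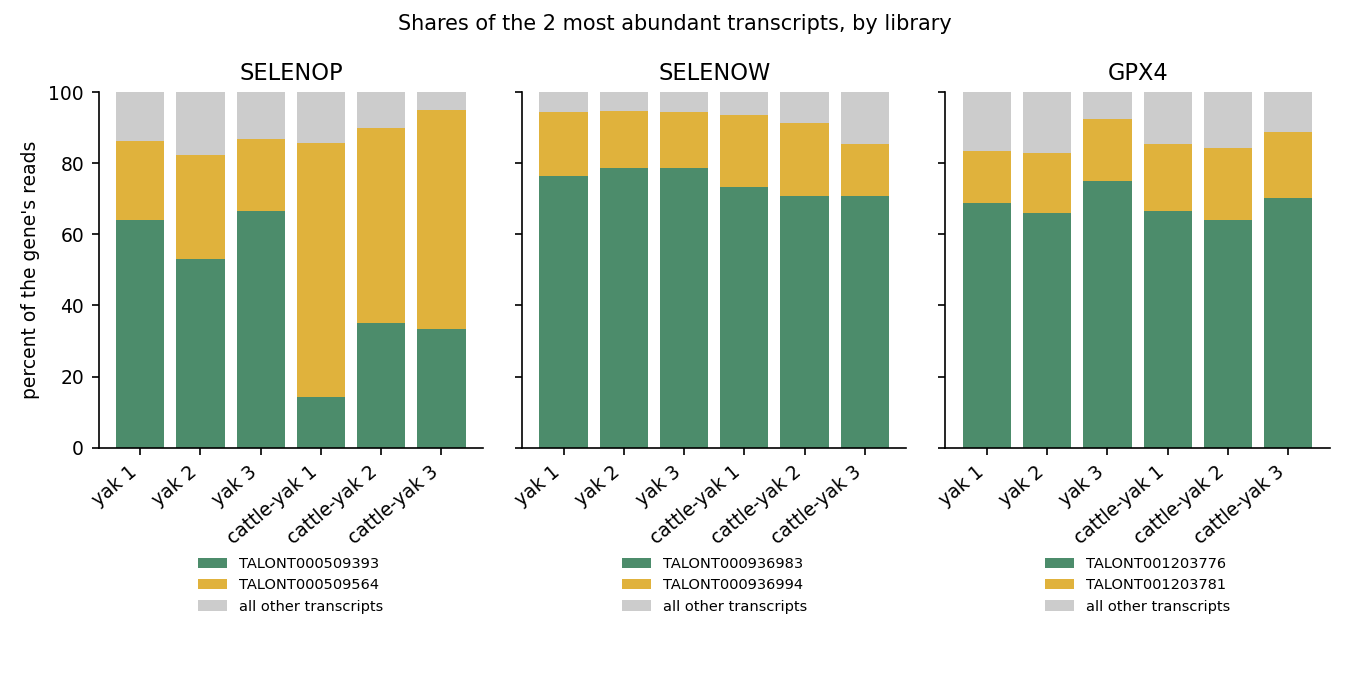
Percent of a gene's reads in its most abundant transcript (green), the next (yellow) and all others (grey), with 1 bar per library, for SELENOP, SELENOW and GPX4. In SELENOP the green share is 61.2% on average in yak and 27.5% in cattle-yak, while in SELENOW it is 77.9% and 71.6% and in GPX4 69.9% and 67.0%.

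Another 3 of the genes encode selenoproteins of the endoplasmic reticulum. SELENOK, which takes part in protein palmitoylation and calcium flux, had 199, 206 and 172 reads in yak against 200, 226 and 222 in cattle-yak. The groups overlapped, and the log2 fold change of -0.02 (95% interval -0.38 to 0.33) took either sign over the alternatives. SELENOS, a part of the machinery that exports misfolded proteins for degradation, had 39, 25 and 37 reads against 51, 53 and 43 (log2 fold change 0.35, 95% interval -0.23 to 0.93). SELENOS also overlapped, because cattle-yak 3 lay within the yak range. SELENOT, a thioredoxin-like protein, had levels of 15.97, 19.22 and 18.92 CPM in yak against 20.58, 19.28 and 24.97 CPM in cattle-yak. Its groups did not overlap but nearly touched, and the difference did not pass (log2 fold change 0.26, 95% interval -0.25 to 0.77, adjusted p = 0.51).

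TXNRD1 encodes the cytosolic thioredoxin reductase and had the fewest reads of the set, 12, 18 and 12 in yak against 13, 14 and 28 in cattle-yak. It overlapped between the groups, its log2 fold change was 0.18 (95% interval -0.64 to 1.01), and none of its 9 transcripts had enough reads to be tested.

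Across the 10 genes 204 transcripts were listed and 25 had enough reads to be tested, 13 of them under the MSRB1 identifier. Of the 25, 5 rose and 7 fell, where 18.5% of all 15804 tested transcripts passed. The transcripts that rose were 4 named MSRB1 and 1 of GPX3, and those that fell were 3 of SELENOW, 3 named RPL3L and 1 of SELENOP. Of these 12, 6 met the filter only through the group in which they were higher, so the counts are a description.

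Reference transcripts were present in 3 of the 10 identifiers only. In SELENOK, the single reference transcript ENSBGRT00000039888 held 91.3% ± 1.07 (SD, n = 3) of the reads in yak against 90.6% ± 1.95 in cattle-yak, or -0.656 percentage points (p = 0.7, exact permutation test, two-sided). In SELENOS, 2 reference transcripts held 68.6% ± 8.01 and 58.9% ± 4.81, or -9.74 points (exact permutation p = 0.3). One of them, ENSBGRT00000007992, went from 26.8% ± 4.69 to 11.96% ± 5.81 of SELENOS reads, without overlap, on 4 to 12 reads a library. Under the MSRB1 identifier all 3 reference transcripts were named RPL3L and held 37.1% ± 2.90 in yak and 8.68% ± 4.24 in cattle-yak (exact permutation p = 0.1, the smallest that 3 against 3 libraries can give). The other 7 genes, SELENOW and GPX3 among them, were read from assembled transcripts alone. In SELENOT the leading transcript, TALONT000428282, held 80.2% ± 2.13 in yak and 69.4% ± 3.55 in cattle-yak, ranges that did not overlap.

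The genes around the selenoproteins were read from 7 lists of 80 symbols, of which 69 had reads and 52 were tested. Of the 52 tested, 5 rose, 4 fell and 43 did not pass, with a median log2 fold change of -0.11, where 6.45% of all tested genes rose, 6.18% fell and 12.6% passed in all. Of the 5 that rose, MSRA, NPLOC4, SECISBP2 and ELAVL1 met the filter on low counts only through cattle-yak and had to be higher there to be tested. Only NCL met it in both groups, so the count of genes that rose supports nothing about these lists. Among the 15 other selenoprotein genes, 9 had reads and 4 could be tested. SELENOF, which works in protein folding control in the endoplasmic reticulum, had 229, 313 and 268 reads in yak against 154, 144 and 162 in cattle-yak. It fell in every cattle-yak library below the lowest yak library (log2 fold change -1.01, SE 0.17, adjusted p = 0.00207). SEPHS2, the selenophosphate synthetase that is itself a selenoprotein, had 19, 34 and 14 reads against 78, 42 and 46 and did not pass (log2 fold change 1.12, SE 0.36, adjusted p = 0.058). SEPHS2 passed in 5 of its 17 alternatives, over a range of adjusted p from 0.0282 to 0.204. SELENOM did not pass (log2 fold change 0.37, SE 0.32).

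Of 14 genes of selenoprotein synthesis, 12 were tested, 3 rose, none fell, and the median log2 fold change was 0.01, beside 6.45% of all tested genes that rose and 6.18% that fell. SECISBP2, which binds the selenocysteine hairpin, had 6, 7 and 12 reads in yak against 23, 20 and 26 in cattle-yak (log2 fold change 1.25, SE 0.38, adjusted p = 0.0444), a call kept in 6 of 16 alternatives with adjusted p from 0.0266 to 0.152. The identifiers of NCL (log2 fold change 0.65, adjusted p = 0.011) and ELAVL1 (1.43, adjusted p = 0.0491), both RNA-binding proteins, also rose. Those gene names stood on only 13.8% and 12.1% of their identifiers' reads, so the remaining reads may belong to other transcripts. With NCL-named reads counted apart, the NCL call was lost. The log2 fold change was then 0.45 by identifier and symbol (edgeR, adjusted p = 0.124) and 0.51 by symbol (0.0808). The NCL call was kept in 13 of 17 alternatives, with adjusted p from 0.00283 to 0.124, and the ELAVL1 call in 3 of 14, from 0.0313 to 0.191. SECISBP2 and ELAVL1 had to be higher in cattle-yak to be tested, so their calls and these tallies add no support to a rise. RPL30 (log2 fold change -0.24) and EIF4A3 (0.02) did not pass, and neither did LRP1 (0.05), the single selenium uptake receptor gene with reads.

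MSRA, a methionine sulfoxide reductase that uses cysteine in place of selenocysteine and acts on the S form of oxidised methionine, rose as the MSRB1-named reads did. It had 6, 14 and 4 reads in yak against 107, 84 and 110 in cattle-yak. The mean rose from 3.53 ± 2.28 to 38.8 ± 4.51 CPM (SD, n = 3), with a log2 fold change of 3.44 (SE 0.35), a sign that it needed to be tested. Unlike MSRB1, MSRA was not highest in cattle-yak 2, which had the fewest MSRA reads of its group. MSRB3, which also uses cysteine, had a log2 fold change of -0.51 and did not pass (adjusted p = 0.0742), nor did GPX8, a peroxidase of the endoplasmic reticulum without selenocysteine (-0.16).

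Of 23 genes of the thioredoxin and glutathione systems, 18 were tested, none rose and 3 fell, with a median of -0.23, beside 6.18% of all tested genes that fell. These were peroxiredoxins, which reduce peroxides with electrons from thioredoxin or glutathione. The mitochondrial PRDX3 fell from 274 ± 32.9 to 160.5 ± 10.8 CPM (SD, n = 3; log2 fold change -0.77, SE 0.16, adjusted p = 0.0071), and PRDX6 fell by as much (-0.77, SE 0.17, adjusted p = 0.00857). Both calls were lost when assembled transcripts alone were counted (adjusted p = 0.162 and 0.142) and kept in the other 17 alternatives. Over all 18 the adjusted p ranged from 0.000393 to 0.162 for PRDX3 and from 0.000329 to 0.142 for PRDX6. PRDX5 stood at the threshold (log2 fold change -0.53, adjusted p = 0.0499), a call kept in 3 of 17 alternatives (0.0293 to 0.17). PRDX2 and SOD1, both at -0.23, did not pass.

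Among 14 partners of protein degradation at the endoplasmic reticulum, 12 were tested and NPLOC4 rose, from 1, 2 and 5 reads to 28, 23 and 12 (log2 fold change 2.74, SE 0.58), again testable only through cattle-yak, or 1.61 when its identifiers were summed by symbol. UBXN4 (0.24) and VCP (-0.12), the ATPase that SELENOS recruits, did not pass. The last list held 5 genes, for the MICAL enzymes that oxidise actin, whose methionines MSRB1 reduces, and for relatives of these enzymes. The enzyme genes MICAL1, MICAL2 and MICAL3 had too few reads to be tested. Only the relative MICALL1 was tested, again only through cattle-yak, and did not pass (log2 fold change 0.82, SE 0.43).

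**Figure D5:**
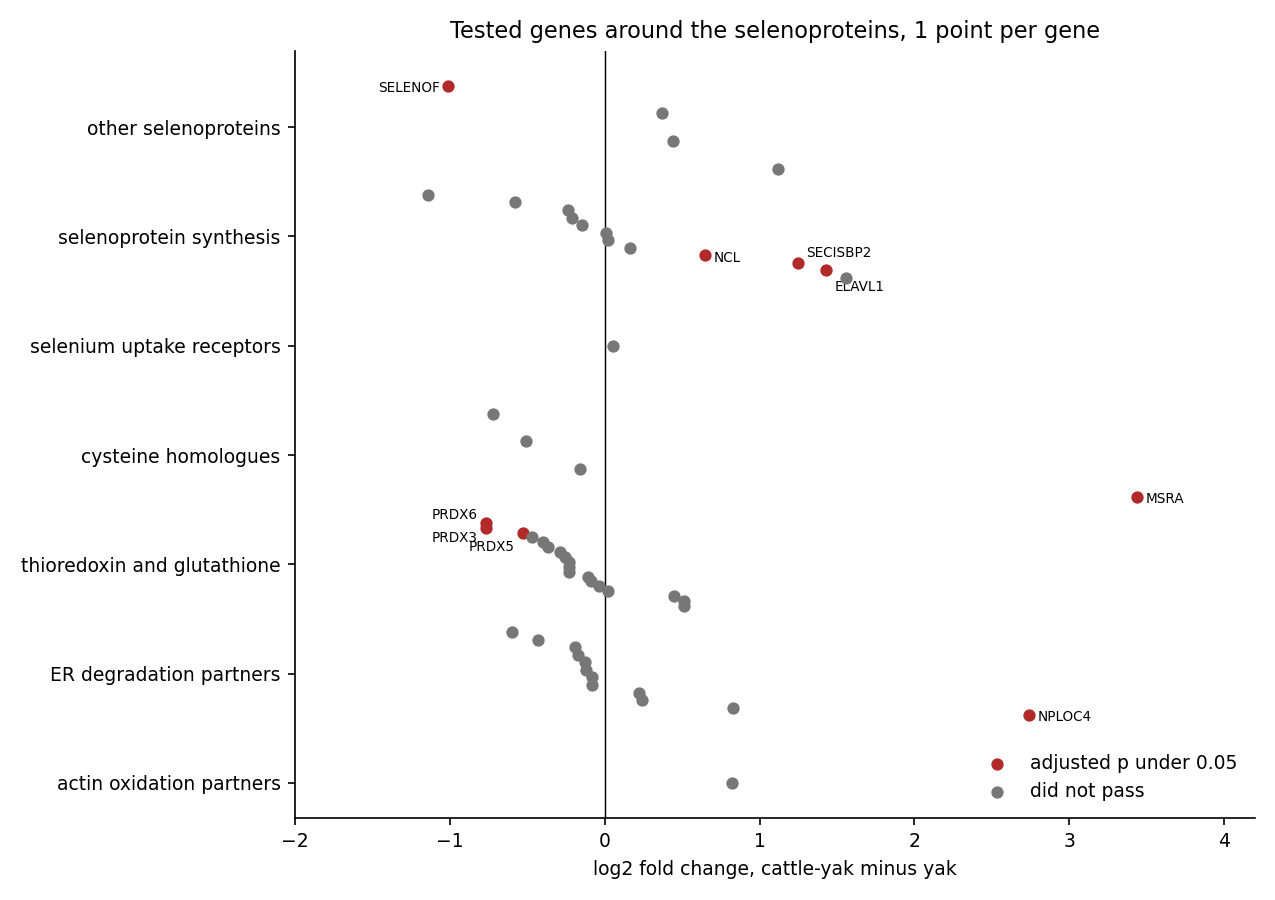
Log2 fold change of cattle-yak minus yak for the 52 tested genes of the 7 lists around the selenoproteins, with 1 point per gene, in red and named where the adjusted p was under 0.05. Most points lie near 0, MSRA at 3.44 and NPLOC4 at 2.74 lie farthest to the right, and SELENOF at -1.01 is the lowest of those that passed.

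The genes whose pattern over the 6 libraries was most like that of SELENOW, GPX3 and the MSRB1 identifier were found among 2916 genes with a mean of at least 20 CPM. Likeness was the root mean square distance between log2 CPM values centred on each gene's own mean. The nearest to SELENOW were STBD1 (distance 0.43), LMOD3 (0.45) and MSS51 (0.45), which were lower in all cattle-yak libraries. The nearest to GPX3 were GABARAPL1 (0.30), ACACB (0.34) and an assembled gene without a name, TALONG000040946 (0.36), all higher in cattle-yak and, like GPX3, highest in cattle-yak 2 or cattle-yak 1 and lowest of their group in cattle-yak 3. The nearest to the MSRB1 identifier were SERPING1 (0.18), MGP (0.21) and PTP4A3 (0.24), all highest in cattle-yak 2. These are descriptions of 6 libraries that share their groups.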

How the data were processed

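Per the file headers, the authors deposited read counts and CPM per transcript for the 6 libraries. The deposited CPM equal counts over the library total within 0.005. Per the submitters' processing notes fastp, minimap2 and GSNAP were used. Versions, genome build and strand handling could not be read from any source used here, so reads of a gene and an antisense partner cannot be told apart, and reads from cattle alleles were not examined separately. The table held 179856 transcripts (6986 reference, 172870 assembled) after 132 lines of overflowing annotation text were left out, and 61 transcripts lacked a gene identifier (up to 0.00249% of a library's counts) and stayed out.

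Counts were summed by gene identifier and tested with edgeR 4.0.16 (filterByExpr, TMM, robust quasi-likelihood test, Benjamini-Hochberg, R 4.3.3), transcripts likewise, and usage with diffSpliceDGE on transcripts holding at least 5% of a gene's reads. Alternatives used limma 3.58.1 and DESeq2 1.42.0, other scalings, filters, gene units and left-out libraries. No 2 libraries of a group agreed within sampling noise. Members and lists were chosen with earlier results of these data known. Named beside the members were all genes of the other selenoprotein and synthesis lists past 0.05, up to 3 past it in each other list, the 2 most abundant not past it in each list, up to 4 transcripts per member, and 3 like genes each for SELENOW, GPX3 and MSRB1. On simulated data with 7203 genes the gene test found 42.3% of changes of 1 and 94.9% of changes of 2 on the log2 scale, with 6.3% false calls.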

Additional observations from a re-analysis of the deposited data

How the results depend on the processing

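Of 772 recomputed single values, 669 kept their direction and side of the threshold, 60 lost and 14 gained a call, and 29 changed sign. SELENOF passed in all 17 of its alternatives. SELENOW, GPX3 and the MSRB1 identifier were chosen for their differences. GPX3, MSRA, NPLOC4, SECISBP2 and ELAVL1 met the low count filter only through cattle-yak. The calls of all these genes under other settings thus say nothing about stability. The MSRB1 identifier stood at -0.57 from reference transcripts alone, which are all named RPL3L. With reference transcripts alone 1 member, 4 of the neighbouring genes and 194 genes passed, RPL30 stood at 0.61, PRDX2 at 0.37, UBXN4 at -0.02 and SELENOK at 0.19, and 7 members had no reads to test. Summed by symbol, 628 genes passed and SELENOK stood at 0.04. With a mean of at least 10 CPM, 5 neighbouring genes and 7 member transcripts passed, and SELENOK and its transcript ENSBGRT00000039888 stood at 0.01. With no filter beyond 10 pooled reads 19 member transcripts passed. Library size alone moved the median of all genes from 0.02 to 0.18, SELENOK to 0.13, ENSBGRT00000039888 to 0.14, VCP to 0.04 and TALONT001203781 to 0.10. Without a low count filter that median was 0.24, EIF4A3 stood at -0.10 and LRP1 at -0.07. From assembled transcripts alone SELENOK stood at 0.06 and EIF4A3 at -0.02. The Simes method left 1 member with changed usage. Members past the threshold numbered 4 with DESeq2, limma-voom, no filter, no robust dispersion or without yak 2, through GPX1. Leaving out 1 library gave 544 (without yak 3) to 997 genes, 616 without yak 2, 6 to 8 neighbouring genes, 3 to 4 members, 9 to 14 member transcripts and 1 to 2 members with changed usage. Values near 0 changed sign there: SELENOK ran from -0.11 to 0.01, EIF4A3 from -0.06 to 0.11, LRP1 from -0.23 to 0.40, TXNRD1 from -0.21 (without cattle-yak 3) to 0.37, ENSBGRT00000039888 from -0.13 to 0.04, TALONT000428282 from -0.08 to 0.16 and TALONT001203781 from -0.24 to 0.06. Where no construction explains a shift, the cause was not tested. Samples that share a number did not deviate together (correlations of -0.04, -0.02 and 0.02), and with a replicate block 3 members, 12 member transcripts, 2 members with changed usage, 7 neighbouring genes and 890 genes passed. Depth differs among the members, from 97 pooled reads for TXNRD1, 180 for SELENOP and 214 for GPX3 to 11184. In simulated data over 7203 genes the gene test found 42.3% of changes of 1 on the log2 scale.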

Other observations

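One minor SELENOW transcript did not follow the gene. TALONT000937029 had 1, 3 and 19 reads in the yak libraries against 3, 4 and 20 in the cattle-yak libraries, so it was highest in the third library of each group and at a similar level in both groups. It had too few reads in most libraries to be tested. Its share of SELENOW reads was 0.521% ± 0.655 (SD, n = 3) in yak against 4.21% ± 3.79 in cattle-yak. It was singled out after its values were seen.

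A further 4 synthesis genes that did not pass stood on both sides of 0, also singled out afterwards. EEFSEC, the elongation factor for selenocysteine, had 3, 2 and 11 reads in yak against 15, 15 and 25 in cattle-yak (log2 fold change 1.56, SE 0.54, adjusted p = 0.0748). PSTK, the kinase that prepares the selenocysteine tRNA, had 23, 14 and 23 reads against 7, 10 and 14 (log2 fold change -1.14, SE 0.39, adjusted p = 0.0681). SECISBP2L (-0.58) and TRIT1 (0.01) did not pass either. The groups did not overlap in EEFSEC, PSTK or SECISBP2L, as in 33.0% of all genes tested. They overlapped in TRIT1, SEPSECS, SEPHS1, TRNAU1AP, RPL30 and EIF4A3, which did not pass either. EEFSEC met the low count filter only through cattle-yak. PSTK reached its cutoff in all yak libraries and in all cattle-yak libraries but cattle-yak 1. Both were singled out afterwards, so their differences are a description.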
